A study of Mus musculus with 6 samples.

Results

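The 31 genes described here are immediate early genes and MAPK feedback genes, taken by symbol from a fixed list out of the 55487 genes of a mouse count table. No measured value entered that choice as a rule, although earlier results of the same libraries were known when the list was made. All 31 symbols were found, and all 31 passed the filter on low counts that left 16962 genes tested. The cells were mouse embryonic fibroblasts (MEFs) of wild-type genotype, a primary culture derived from embryos and kept in medium with fetal bovine serum. They were used at passage 1 (P1, labelled non-senescent) and passage 6 (P6, labelled senescent). Each passage has 1 vehicle library, 1 α-amyrin library and 1 β-amyrin library, both compounds at 20 µM for 3 days, which makes 6 libraries of poly(A) RNA. The labels do not name the vehicle, the number of embryos, or whether P6 cells descend from the P1 isolate, so passage and isolate cannot be told apart. No condition has a replicate, and p-values measure only the spread among these libraries, which may be technical.

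Immediate early genes are transcribed within minutes of a stimulus such as serum, without new protein synthesis. Growth factor receptors activate RAS, RAF, MEK and ERK in turn, and ERK phosphorylates ETS-family partners of serum response factor, which then drive genes such as Fos and Egr1. The feedback genes switch the pathway off again: dual-specificity phosphatases (DUSPs) dephosphorylate ERK, p38 and JNK, and Sprouty proteins block signalling between receptor and RAF. The RNA here was taken after 3 days in serum-containing medium, and the labels do not say when the medium was last changed.

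Short promoter stretches are shown because they hold letters matching the motifs through which serum, cAMP and EGR factors can act on genes. Whether the matches act in these cells was not tested. RefSeq windows of build GRCm38.p6 (mm10), running from 250 bases before to 50 bases after the transcript start, were matched for 22 of the 31 genes. Both strands were searched for the CArG box of serum response factor, the cAMP response element TGACGTCA, the AP-1 site TGANTCA and the EGR site GCGNGGGCG. The 5 stretches below were chosen after the search because they hold a match, and they are written 5′ to 3′ along the gene with the matched letters in capitals. In Zfp36 the first capitals are an EGR site and the second a CArG box. Dusp5 has a pair of adjoining CArG boxes, Dusp1 a cAMP response element, Nr4a1 an EGR site and Klf4 a pair of EGR sites.
Zfp36, chr7:28379257-28379353, minus strand: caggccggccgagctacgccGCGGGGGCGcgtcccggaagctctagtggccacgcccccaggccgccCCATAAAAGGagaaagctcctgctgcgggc
Dusp5, chr19:53529043-53529102, plus strand: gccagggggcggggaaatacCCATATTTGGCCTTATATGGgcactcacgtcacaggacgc
Dusp1, chr17:26508588-26508635, minus strand: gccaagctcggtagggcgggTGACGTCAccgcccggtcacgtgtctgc
Nr4a1, chr15:101266766-101266814, plus strand: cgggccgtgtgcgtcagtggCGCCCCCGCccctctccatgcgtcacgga
Klf4, chr4:55532641-55532706, minus strand: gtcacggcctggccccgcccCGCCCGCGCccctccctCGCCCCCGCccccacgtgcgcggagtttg
A CArG box was present in 2 of the 22 windows, 9.09%, against 1.52% of all 16797 windows. The EGR site was present in 7 windows (Fosb, Fosl2, Nr4a1, Nr4a2, Klf2, Klf4 and Zfp36), 31.8%, against 7.71% of all windows. The cAMP response element was found in 1 window, 4.55%, against 2.42%. The AP-1 site was found in 0 windows, against 7.06% of all. These shares describe letters in a short window and were not tested. The window of Fos held no match to any of these motifs, and sites outside the windows were not searched. No window was matched for Fosl1, Egr1, Egr3, Myc, Ier2, Phlda1, Dusp4, Spry4 or Etv4.

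Libraries held 18798418 to 28752332 counts, and mitochondrial genes took 1.55% to 1.81% of them. Levels are given as normalised read counts, that is counts scaled to a common library size after TMM normalisation (CPM), always in the order vehicle, α-amyrin, β-amyrin. Summed macrophage markers reached 400, 350 and 46.8 CPM at P1 and 5746, 5862 and 4076 CPM at P6, and all 18 tested markers of the 19 listed rose. Fibroblast markers summed to 36264 to 43618 CPM at P1 and to 51012 to 56754 CPM at P6, although 8 of the 12 fell and 2 rose. Fn1 went from 13589, 10795 and 11486 CPM to 30105, 28955 and 30466 CPM, a larger gain than that of the sum in each treatment. Among the defining fibroblast markers, Col1a1 fell from 15011, 11859 and 14229 CPM to 12622, 9338 and 11721 CPM, and Pdgfra fell from 121, 189 and 145 CPM to 24.2, 28.9 and 28.7 CPM. Endothelial markers summed to 141 to 150 CPM at P1 and 36.0 to 53.2 CPM at P6, with Pecam1 and Cdh5 under 1 CPM throughout. Most of the P1 sum was Flt1, at 105 to 116 CPM and then 20.5 to 22.7 CPM. Of the 6 tested, 4 fell and 1, Vwf, rose. Epithelial markers summed to 36.2 to 43.9 CPM and then 7.36 to 8.39 CPM, with Epcam under 1 CPM, and neural markers to 153 to 191 CPM and then 151 to 184 CPM. Heat shock genes, listed as a check on handling, summed to 3063 to 3298 CPM and then 2460 to 2590 CPM, and 5 of the 9 fell. Hspa8 alone held 1454 to 1511 CPM and then 1314 to 1409 CPM. Hspa1b was the 1 gene that rose, from 28.2, 31.4 and 33.6 CPM to 45.9, 39.5 and 41.1 CPM, while Hspa1a and Dnajb1 were not called. The part that these markers' cells play in any difference below, between passages or between treatments, was not tested. In bulk RNA, fewer cells of a type and less RNA per cell cannot be told apart.

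**Figure D1:**
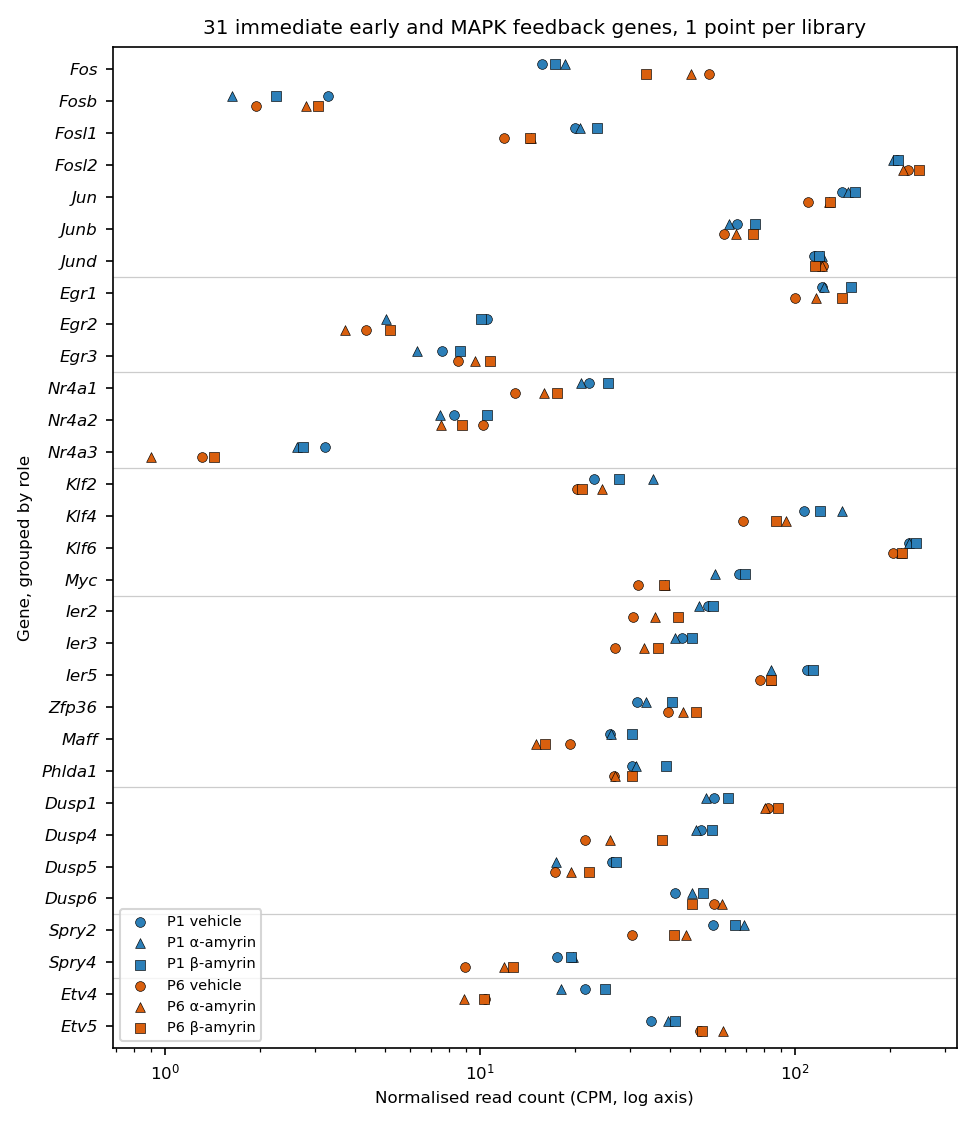
Normalised read counts (CPM, log axis) of the 31 genes, grouped by role, with 1 point per library; colour marks the passage and shape the treatment. Fos sits at 15.8 to 18.6 CPM in the P1 libraries and at 33.5 to 53.5 CPM in the P6 libraries.

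Most of the genes were lower at P6. Of the 31, 19 fell, 6 rose and 6 did not pass the test (edgeR quasi-likelihood, Benjamini-Hochberg adjusted p below 0.05 over all 16962 genes). Over all genes tested, 29.1% fell, 30.0% rose and 59.2% were called in either direction, so the 25 called genes here, 80.6%, divide unevenly where the whole table divides evenly. The median log2 change of the 31 was -0.27, against 0.00 over all genes. Only 3 were called at 2-fold or more (Fos, Nr4a3 and Etv4), a share of 9.68% against 16.5% of all genes. The genes were thus lowered often but mostly by small amounts.

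The passages were also compared within each treatment. P6 was below P1 in the vehicle, the α-amyrin and the β-amyrin pair alike for 19 of the 31 genes, 61.3%, against 37.9% of all genes. It was above P1 in all 3 pairs for 6 genes, 19.4%, against 38.4%. The levels of all 3 P6 libraries lay below those of all 3 P1 libraries for 14 genes (32.2% of all genes) and above them for 4 genes, Fos, Fosl2, Dusp1 and Etv5 (32.5% of all genes). The median log2 ratio was -0.41 in the vehicle pair, -0.20 in the α-amyrin pair and -0.36 in the β-amyrin pair. Counting only genes with 5 CPM or more in 1 library of the pair, at least 1.5-fold lower at P6 were 12 genes with vehicle (9.65% of all genes), 6 with α-amyrin (9.03%) and 7 with β-amyrin (9.82%). At least 1.5-fold higher were 1 gene with vehicle (11.0% of all genes), 3 with α-amyrin (11.4%) and 1 with β-amyrin (11.2%). The differences between these pairs were not tested beyond the passage-by-amyrin term given at the end.

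**Figure D2:**
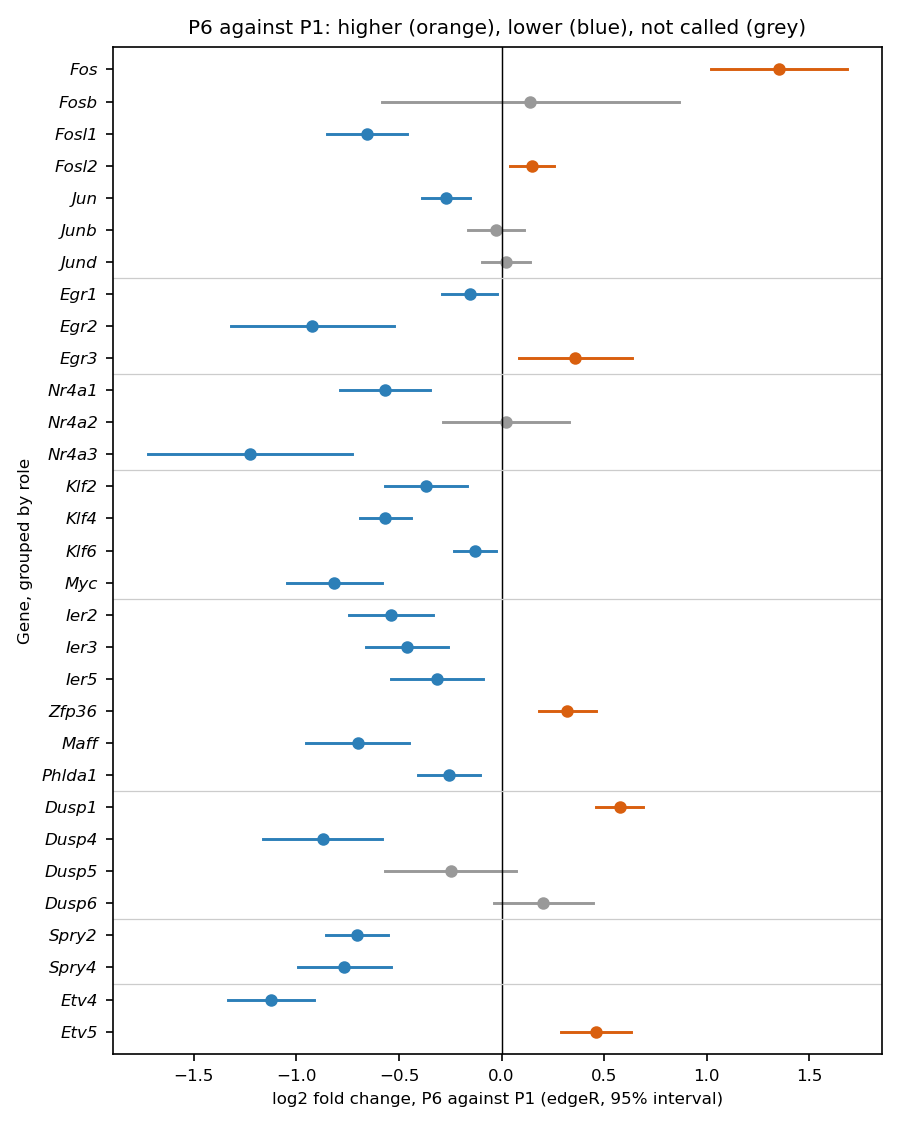
Log2 fold change of each gene at P6 against P1 with its 95% interval from the edgeR fit, grouped by role; orange points rose, blue points fell and grey points did not pass the test. Fos, at 1.35, lies farthest to the right and Nr4a3, at -1.23, farthest to the left.

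AP-1 is a dimer of a Fos and a Jun protein, and its members divided: Fos and Fosl2 rose, Fosl1 and Jun fell, and Fosb, Junb and Jund did not pass the test. Fos, the founding immediate early gene (chromosome 12, positions 85473890 to 85477273, plus strand, mm10), stood at 15.8, 18.6 and 17.3 CPM at P1 and at 53.5, 46.7 and 33.5 CPM at P6. All P6 libraries were above all P1 libraries, with vehicle highest and β-amyrin lowest at P6. Fos rose by 1.35 ± 0.14 on the log2 scale (SE, 2.55-fold, adjusted p = 0.000207). In single pairs the ratio of P6 to P1 was 3.38-fold with vehicle, 2.504-fold with α-amyrin and 1.94-fold with β-amyrin. The macrophage marker sum was also lowest with β-amyrin at P6, at 4076 CPM, and its part in the Fos values was not tested.

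Fosl1 encodes Fra-1, a Fos protein that is induced later and is more stable. It was measured at 20.1, 20.8 and 23.5 CPM at P1 and at 11.9, 14.5 and 14.4 CPM at P6, without overlap, and fell by 0.66 ± 0.08 on the log2 scale (adjusted p = 0.000484). Fosl2, encoding Fra-2, was far more abundant, at 210.2, 205 and 212 CPM and then 229, 220.2 and 247 CPM, without overlap. Its rise of 0.15 ± 0.05 (adjusted p = 0.0272) was lost without P1 vehicle, P1 β-amyrin, P6 vehicle or P6 β-amyrin (0.10 to 0.15, adjusted p = 0.081 to 0.20), and also in limma on FPKM and in a fit of passage alone. Jun, the chief partner of Fos, was measured at 141, 147 and 155 CPM and then 110.2, 128 and 129 CPM, and fell by 0.27 ± 0.05 (adjusted p = 0.0028) without overlap. Junb (-0.03 ± 0.06, adjusted p = 0.691) and Jund (0.02 ± 0.05, adjusted p = 0.751) had 95% intervals of -0.16 to 0.11 and -0.10 to 0.14. Fosb was scarce, at 1.63 to 3.30 CPM from 46 to 86 counts, and a difference within its interval of -0.58 to 0.86 was not detectable. Its P6 to P1 log2 ratio was -0.74 in the vehicle pair, 0.76 in the α-amyrin pair and 0.43 in the β-amyrin pair. Intervals from the counts alone were -1.31 to -0.23, 0.20 to 1.38 and -0.07 to 0.97 in that order. The part of depth and of these opposite signs in the fitted interval was not tested.

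The EGR factors, zinc finger proteins that bind GC-rich sites, also divided. Egr2 was measured at 10.5, 5.03 and 10.1 CPM at P1 and at 4.36, 3.72 and 5.17 CPM at P6. The P1 α-amyrin library lay within the P6 range, so the passages overlapped. Egr2 fell by 0.92 ± 0.17 on the log2 scale (adjusted p = 0.00282), and by 0.58 in limma on log2(FPKM + 1). Egr1, the most abundant of the family, stood at 122, 124 and 151 CPM and then 99.97, 116 and 141 CPM, and the passages overlapped. Its fall of 0.16 ± 0.06 (adjusted p = 0.0466) was lost without P1 vehicle, P1 α-amyrin, P6 vehicle or P6 α-amyrin (-0.19 to -0.10, adjusted p = 0.0595 to 0.195), with DESeq2 (adjusted p = 0.0683) and with passage alone (adjusted p = 0.357). Egr3 went the other way, from 7.59, 6.32 and 8.64 CPM to 8.55, 9.61 and 10.7 CPM, with 1 P6 library just below the highest P1 library. Its rise of 0.36 ± 0.12 (adjusted p = 0.0323) was lost without either α-amyrin or either β-amyrin library (0.24 to 0.37, adjusted p = 0.0515 to 0.169), with DESeq2 (adjusted p = 0.115), in limma on log2(FPKM + 0.1) (adjusted p = 0.0538) and with passage alone (adjusted p = 0.0583).

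The NR4A orphan nuclear receptors are transcription factors that act without a known natural ligand and are controlled largely by their own induction. Nr4a1 was measured at 22.2, 20.9 and 25.4 CPM and then 12.9, 15.98 and 17.5 CPM, without overlap, and fell by 0.57 ± 0.09 on the log2 scale (adjusted p = 0.00177). Nr4a3 was measured at 3.22, 2.62 and 2.73 CPM and then 1.31, 0.903 and 1.43 CPM, from 17 to 84 counts. It fell by 1.23 ± 0.21 (2.34-fold, adjusted p = 0.00217), also without overlap, but at counts that limit the precision, and by 0.30 in limma on log2(FPKM + 1), where the pseudocount compresses so low a gene. Nr4a2 stood at 8.25, 7.44 and 10.5 CPM and then 10.2, 7.54 and 8.79 CPM, and did not pass the test (0.02 ± 0.13, interval -0.29 to 0.33, adjusted p = 0.898).

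All 3 Krüppel-like factors and Myc were lower at P6. Myc, a driver of growth and cell cycle entry, was measured at 66.2, 55.7 and 69.5 CPM and then 31.8, 38.5 and 38.4 CPM. It fell by 0.82 ± 0.10 on the log2 scale (1.76-fold, adjusted p = 0.000396), without overlap. Klf4, a zinc finger factor linked to growth arrest and to pluripotency, was measured at 107, 141 and 120.3 CPM and then 68.4, 93.9 and 86.8 CPM. It fell by 0.57 ± 0.05 (adjusted p = 0.000119), and at both passages its lowest library was vehicle and its highest α-amyrin. Klf2, best known from endothelium under flow, was measured at 22.9, 35.4 and 27.7 CPM and then 20.3, 24.5 and 21.1 CPM, with the P6 α-amyrin library above P1 vehicle. Its fall of 0.37 ± 0.08 (adjusted p = 0.00772) was lost without P6 α-amyrin (-0.28, adjusted p = 0.0529) and with passage alone (adjusted p = 0.0543). Klf6 stood at 229.7, 229.9 and 242 CPM and then 205, 217 and 219 CPM, without overlap. Its fall of 0.13 ± 0.04 (adjusted p = 0.0344) was lost without any single library (-0.15 to -0.12, adjusted p = 0.0513 to 0.113) and with passage alone (adjusted p = 0.0682).

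Of the other immediate early genes, 5 fell and 1 rose. Ier2, a nuclear protein of the early serum response, was measured at 53.0, 49.5 and 55.1 CPM and then 30.6, 36.0 and 42.6 CPM, and fell by 0.54 ± 0.09 on the log2 scale (adjusted p = 0.00166). Ier3, which acts on survival and ERK signalling, was measured at 43.7, 41.7 and 47.1 CPM and then 26.9, 33.3 and 36.6 CPM, and fell by 0.46 ± 0.08 (adjusted p = 0.003). Neither gene overlapped between passages, and in both β-amyrin was the highest library at each passage. Maff, a small MAF protein, was measured at 25.8, 26.0 and 30.3 CPM and then 19.3, 15.1 and 16.1 CPM, and fell by 0.70 ± 0.11 (adjusted p = 0.00115) without overlap. Ier5 stood at 109, 83.9 and 114 CPM and then 77.3, 83.7 and 84.0 CPM, with a slight overlap. Its fall of 0.31 ± 0.09 (adjusted p = 0.0254) was lost without P1 vehicle or P6 vehicle (-0.24 and -0.23, adjusted p = 0.109 and 0.111). Phlda1, a pleckstrin homology protein, stood at 30.3, 31.3 and 38.9 CPM and then 26.7, 26.8 and 30.3 CPM, which touch at the edge. Its fall of 0.26 ± 0.06 (adjusted p = 0.012) was lost without P1 β-amyrin (-0.21, adjusted p = 0.0552) and with passage alone (adjusted p = 0.0653). Zfp36 encodes tristetraprolin, which binds AU-rich elements and speeds decay of cytokine and immediate early mRNAs. It was measured at 31.5, 33.7 and 40.8 CPM and then 39.4, 44.2 and 48.4 CPM, rose by 0.32 ± 0.06 (adjusted p = 0.00291), and overlapped in 1 library.

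The MAP kinase phosphatases moved in opposite directions. Dusp1, the gene with the cAMP response element, encodes a nuclear phosphatase that prefers p38 and JNK. It was measured at 55.2, 52.2 and 61.3 CPM and then 82.3, 80.4 and 88.3 CPM. It rose by 0.58 ± 0.05 on the log2 scale (1.49-fold, adjusted p = 8.59e-05), without overlap and with little spread between treatments. Dusp4, a nuclear phosphatase of ERK, was measured at 50.1, 48.4 and 54.6 CPM and then 21.6, 25.9 and 37.9 CPM. It fell by 0.87 ± 0.12 (1.83-fold, adjusted p = 0.000815), without overlap, and its P6 libraries differed more from one another than its P1 libraries did. Dusp5, another nuclear ERK phosphatase, stood at 26.3, 17.4 and 27.0 CPM and then 17.3, 19.4 and 22.2 CPM. It did not pass the test (-0.25 ± 0.13, adjusted p = 0.154) unless P1 α-amyrin or P6 α-amyrin was left out (-0.44 in either case, adjusted p = 0.0169 to 0.0191) or no filter was used (-0.26, adjusted p = 0.0419). Dusp6, the cytoplasmic ERK phosphatase, stood at 41.6, 47.0 and 51.1 CPM and then 55.2, 58.6 and 47.1 CPM. It did not pass (0.20 ± 0.10, adjusted p = 0.126) unless P1 β-amyrin or P6 β-amyrin was left out (0.35 in either case, adjusted p = 0.00104 to 0.00108).

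Both Sprouty genes fell. Spry2 was measured at 55.0, 69.1 and 64.6 CPM and then 30.4, 45.1 and 41.2 CPM, and fell by 0.71 ± 0.06 on the log2 scale (1.63-fold, adjusted p = 0.000121). Spry4 was measured at 17.6, 19.8 and 19.4 CPM and then 8.97, 11.9 and 12.7 CPM, and fell by 0.77 ± 0.10 (1.70-fold, adjusted p = 0.000478). Neither overlapped between passages, and in both genes vehicle was the lowest library at each passage.

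The PEA3 ETS factors, transcription factors induced by FGF and ERK signalling, also went opposite ways. Etv4 was measured at 21.5, 18.1 and 25.0 CPM and then 10.4, 8.87 and 10.3 CPM, and fell by 1.12 ± 0.09 on the log2 scale (2.18-fold, adjusted p = 6.48e-05). Etv5 was measured at 34.9, 39.5 and 41.6 CPM and then 50.05, 58.9 and 50.5 CPM, and rose by 0.46 ± 0.07 (1.38-fold, adjusted p = 0.00138). Neither gene overlapped between passages.

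Several of these loci overlap another gene, and the sources used here do not give the strand setting of the counting, so the reads of such pairs may not be separated. Fosl1 shares 2767 bases with Ccdc85b on the opposite strand, which stood at 30.6, 32.1 and 33.0 CPM at P1 and at 26.1, 30.5 and 32.1 CPM at P6. Dusp1 shares 640 bases with Ergic1, which was at 221 to 239 CPM and then 264 to 292 CPM. Jun, Jund, Zfp36, Phlda1 and Dusp5 overlap noncoding genes on the opposite strand, of which Gm11175, beside Jund, had the highest CPM, at 79.9 to 85.7. The values of these 7 genes are uncertain to that extent.

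Pairs of related genes were compared as ratios within a library, which needs no scaling between libraries. The 4 pairs were picked after their values had been seen, so the ratios are a description with no test. The log2 ratio of Fos to Fosl1 was -0.35, -0.16 and -0.44 at P1 and 2.17, 1.68 and 1.22 at P6. The ratio of Etv5 to Etv4 was 0.70, 1.12 and 0.73 and then 2.27, 2.73 and 2.30. The ratio of Dusp1 to Dusp4 was 0.14, 0.11 and 0.17 and then 1.93, 1.64 and 1.22. All P6 values were above all P1 values in these pairs, and β-amyrin was lowest at P6 in the first and the last. The ratio of Egr3 to Egr2 was -0.47, 0.33 and -0.22 and then 0.97, 1.37 and 1.05.

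**Figure D3:**
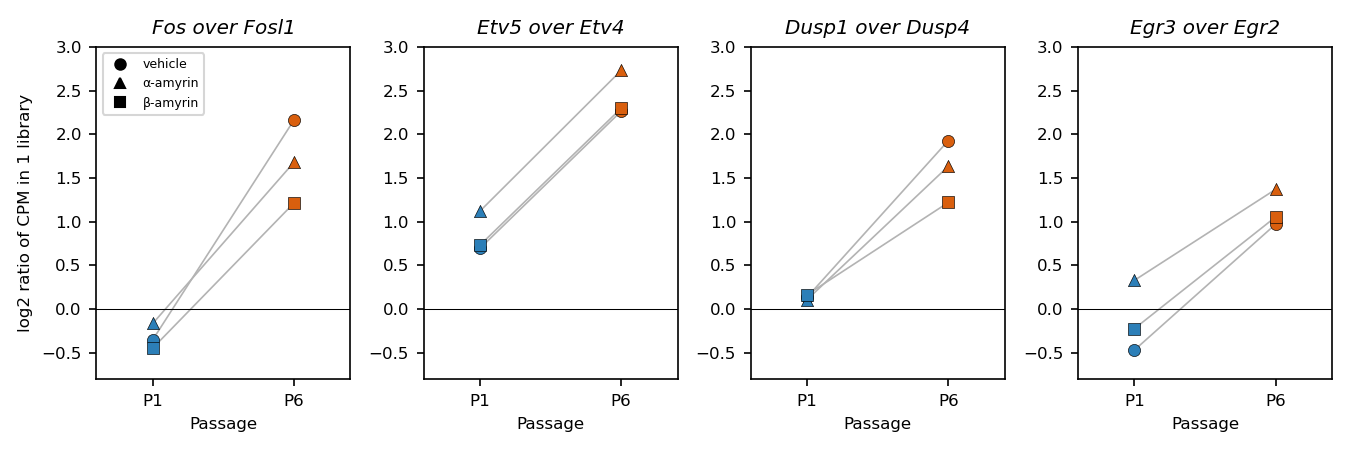
Log2 ratio of CPM between related genes in each library (vertical axis) at P1 and P6 (horizontal axis), with the shape marking the treatment and a panel for each of the 4 pairs. The ratio of Fos to Fosl1 lies between -0.44 and -0.16 at P1 and between 1.22 and 2.17 at P6.

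Levels of different genes can be compared only per length, for which the deposited FPKM values were used. By mean FPKM over the 3 libraries of a passage, Jund ranked first of the 31 at P1 and at P6 (69.1 and 68.9 FPKM), followed by Klf6 (56.2 and 50.7 FPKM) and Jun (47.2 and 38.7 FPKM). Fos moved from rank 23 (7.54 FPKM) to rank 12 (19.5 FPKM), and Dusp1 from rank 14 (17.6 FPKM) to rank 8 (25.6 FPKM). Dusp4 went from rank 13 (19.1 FPKM) to rank 20 (10.5 FPKM). Fosb and Nr4a3 held the last 2 places at both passages, at 0.215 to 0.491 FPKM. These ranks are descriptions, and neighbouring ranks were not tested against each other.

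Genes around this set were read from lists chosen with earlier results known. Of 21 genes of the RAS-ERK cascade, 8 rose and 5 fell at P6, beside 30.0% and 29.1% of all genes. The ERK-activated kinase gene Rps6ka1 rose by 1.82 ± 0.10 on the log2 scale (adjusted p = 1.63e-05), from 12.9, 12.8 and 8.77 CPM to 45.9, 52.9 and 25.9 CPM. Its β-amyrin library was the lowest at each passage, as was the macrophage marker sum, whose part in the Rps6ka1 values was not tested. Mapk3, encoding ERK1, rose by 0.65 ± 0.05 (adjusted p = 6.25e-05), and the adaptor gene Grb2 by 0.62 ± 0.05 (adjusted p = 0.000107). Of 29 other immediate early genes tested, 15 fell and 4 rose (29.1% and 30.0% of all genes), with a median log2 change of -0.26, against -0.27 for the 31. Errfi1, an inhibitor of the EGF receptor, fell by 1.57 ± 0.07 (adjusted p = 7.38e-06), Gadd45b fell by 0.91 ± 0.07 (adjusted p = 4.83e-05), and the kinase gene Sgk1 rose by 1.29 ± 0.05 (adjusted p = 7.2e-06).

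Of 15 other MAPK feedback genes tested, 5 fell and 3 rose (29.1% and 30.0% of all genes). Spry1, the relative of Spry2 and Spry4, fell by 0.89 ± 0.10 on the log2 scale (adjusted p = 0.000273). Dusp9 fell by 1.80 ± 0.15 (adjusted p = 8.44e-05), while Etv1, the third PEA3 factor, rose by 0.71 ± 0.09 (adjusted p = 0.000505). Of 24 receptors and ligands, 10 fell and 7 rose (29.1% and 30.0% of all genes). The PDGF receptor gene Pdgfra fell by 2.46 ± 0.08 (adjusted p = 3.98e-06), the HGF receptor gene Met fell by 0.99 ± 0.06 (adjusted p = 3.01e-05), and Fgf10 rose by 1.19 ± 0.07 (adjusted p = 2.14e-05). Of 14 dimer partners and relatives of AP-1 and MAF, 5 rose and 5 fell (30.0% and 29.1% of all genes). Maf rose by 1.09 ± 0.07 (adjusted p = 3.14e-05) and was lowest in the β-amyrin library at each passage. Atf4, the factor of the integrated stress response, fell by 0.91 ± 0.09 (adjusted p = 0.000137).

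α-Amyrin and β-amyrin are plant triterpene alcohols, isomers that differ in the place of a methyl group on the last ring. Against vehicle, 0 of the 31 genes were called by edgeR for α-amyrin (0.0295% of all genes) and 0 for β-amyrin (0.00590% of all genes). At an unadjusted p below 0.05, 5 genes stood out for α-amyrin (16.1%, against 11.8% of all genes) and 13 for β-amyrin (41.9%, against 10.3%). DESeq2 called 2 for α-amyrin (Klf4 and Spry2) and 1 for β-amyrin (Egr1), and its share of all genes is not given here. The median 95% interval reached 0.25 on the log2 scale to either side. Both contrasts use the same vehicle libraries, so their likeness is not independent evidence.

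The smallest p-values for α-amyrin were those of Klf4, Spry2, Klf2 and Egr2. Klf4 differed by 0.43 ± 0.06 on the log2 scale (adjusted p = 0.0899), which was 1.33-fold at P1 and 1.37-fold at P6. Spry2 differed by 0.44 ± 0.08 (adjusted p = 0.146), 1.25-fold at P1 and 1.48-fold at P6. Klf2 differed by 0.46 ± 0.10 (adjusted p = 0.209), 35.4 against 22.9 CPM at P1 and 24.5 against 20.3 CPM at P6. Egr2 differed by -0.72 ± 0.21 (adjusted p = 0.298), mostly at P1, where it read 10.5 CPM with vehicle and 5.03 CPM with α-amyrin. Klf4, Klf2 and Spry2 passed the test when P1 β-amyrin or P6 β-amyrin was left out. Either fit compares α-amyrin with vehicle over the same vehicle and α-amyrin libraries, so these are not separate checks. The shares of all genes called in those fits are not given here, so these calls cannot be set against the whole table. By size alone at P1, Fosb left out for being under 5 CPM, Klf2 was at least 1.5-fold higher (0.973% of all genes) and Egr2 and Dusp5 at least 1.5-fold lower (0.719%). At P6, 0 genes reached that size in either direction (0.542% of all genes higher, 0.654% lower).

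With β-amyrin, most of the genes lay slightly above vehicle. The ratio was above 0 for 28 of 31 genes at P1 (50.2% of all genes) and for 25 at P6 (51.7%), with medians of 0.15 and 0.24. Macrophage markers summed to 46.8 CPM with β-amyrin against 400 CPM with vehicle at P1. Their median fitted log2 difference was -1.36 over the 18 tested markers, 0 of which were called, and their part in these ratios was not tested. With α-amyrin it was above 0 for 15 genes at P1 (49.3%) and 22 at P6 (53.4%), with medians of -0.03 and 0.17. Egr1 had the smallest adjusted p for β-amyrin (0.40 ± 0.07, adjusted p = 0.190), 151 against 122 CPM at P1 and 141 against 99.97 CPM at P6. Zfp36 followed at 0.34 ± 0.07 (adjusted p = 0.261). At P1, 0 genes were at least 1.5-fold from vehicle (0.295% of all genes higher, 1.09% lower). Dusp4 differed by 0.45 ± 0.15 (adjusted p = 0.421) and, at P6, was 1.75-fold above vehicle, the only gene of the 31 counted as at least 1.5-fold higher there (0.554% of all genes). Fosb, under 5 CPM in both libraries, was not counted. Fos was the only one counted as at least 1.5-fold lower there, at 33.5 against 53.5 CPM (1.49% of all genes). Macrophage markers summed to 4076 CPM in that library against 5746 CPM with vehicle, and their part in the Fos and Dusp4 values was not tested. With P1 β-amyrin left out, the fitted difference from vehicle was -0.59 for Fos, 0.45 for Egr1 and 0.72 for Dusp4. In that fit P6 β-amyrin is the only library of the compound, so these values have no replicate check.

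**Figure D4:**
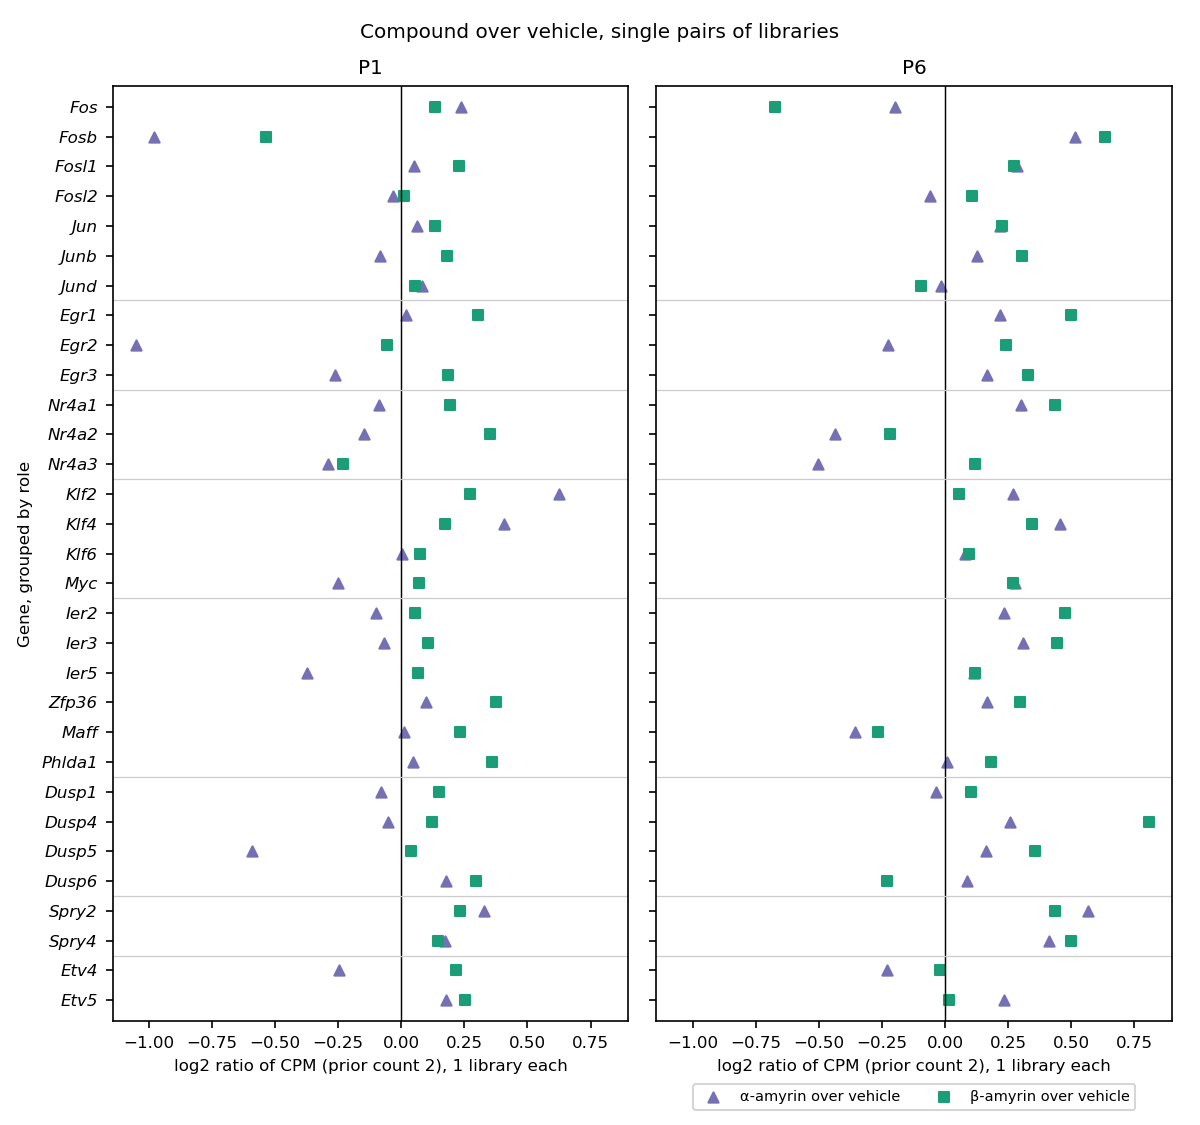
Log2 ratio of CPM of each compound over vehicle (horizontal axis, prior count 2) for the 31 genes (vertical axis), with P1 and P6 in separate panels, triangles for α-amyrin and squares for β-amyrin. Each point compares 1 library with 1 library; 28 squares at P1 and 25 at P6 lie to the right of 0.

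The isomers were compared directly at the same dose and time, as 1 pair of compounds. Of the 31 genes, 0 were called (0.0590% of all genes) by edgeR and 0 by DESeq2, and 11 had an unadjusted p below 0.05 (35.5%, against 9.21% of all genes). The smallest adjusted p was 0.292, for Egr1. For α-amyrin minus β-amyrin, Egr1 differed by -0.28 on the log2 scale (95% interval -0.45 to -0.12), and Egr2 by -0.79 (-1.28 to -0.29). Klf2 was on the other side, at 0.29 (0.05 to 0.53). Dusp4 differed by -0.36 (-0.71 to -0.01). It differed by -0.63 when P1 β-amyrin was left out, a fit in which P6 β-amyrin is the only library of that compound. α-Amyrin was below β-amyrin in 25 genes at P1 (49.3% of all genes), in 22 at P6 (49.2%) and at both passages in 21 (27.7%). Macrophage markers summed to 350 CPM with α-amyrin and 46.8 CPM with β-amyrin at P1 and to 5862 and 4076 CPM at P6, with a median fitted log2 difference of 1.34, and their part in the isomer differences was not tested. Across the 31 genes the median difference was -0.18 at P1 and -0.13 at P6. By size, Egr2 and Dusp5 were at least 1.5-fold lower with α-amyrin at P1 (0.424% of all genes) and 0 genes at P6 (0.312%). At least 1.5-fold higher were 0 of the 31 at P1, where 254 of all 16962 genes were, and 0 at P6, where 232 were. A difference that did not pass the test does not show that the isomers act alike, since the median interval spans 0.25 on the log2 scale to either side.

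Whether the response to an amyrin differed between passages was fitted with both compounds of a passage as 1 group. By edgeR 0 of the 31 genes were called (0% of all genes), by DESeq2 0, and 1 gene, Fosb, had an unadjusted p below 0.05 (2.66% of all genes). Its term was 1.37 ± 0.43 on the log2 scale (adjusted p = 1.00), from 46 to 86 counts a library. The median 95% interval of this term reached 0.48 to either side. These intervals are not adjusted over all genes, so differences of response larger than that could also go uncalled, as that of Fosb did.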

How the data were processed

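Poly(A) RNA of 6 libraries was sequenced from a directional kit, per the labels' protocols. Per the submitters' processing notes, FastQC 0.11.7, Trimmomatic 0.38, HISAT2 2.1.0, SAMtools 1.9, featureCounts 1.6.3 and build mm10 were used; the sources used here do not give their settings. The authors' deposited table holds raw counts per gene as whole numbers, and a second deposited table holds FPKM values, for which the sources used here name no tool. FPKM divided by CPM varied within a gene by 3.28% to 12.1%, so FPKM served only for levels between genes and as an alternative. Counts were tested with edgeR 4.0.16 in R 4.3.3 (TMM, filterByExpr by passage, quasi-likelihood, Benjamini-Hochberg over 16962 genes, threshold 0.05). Treatment and passage were additive terms over all 6 libraries, which leaves 2 residual degrees of freedom from departures from additivity, plus 4.83 prior degrees of freedom. A passage-dependent response is thus part of the error. Standard errors come from the F statistic. Single pairs were described by log2 CPM ratios (prior count 2), and size counts needed 1.5-fold and 5 CPM in 1 library; these have no replicate check. Alternatives were RLE size factors, no filter, DESeq2 1.42.0, limma 3.58.1 on log2(FPKM + 1) and log2(FPKM + 0.1), passage alone, other prior counts and each library left out. The model was tested on simulated data with true 2-fold changes in 200 genes. It recovered 89% of them for passage and 86% for α-amyrin, with 5 and 7 false calls. Every gene was simulated with the same spread and additive effects, and smaller changes were not simulated. All 31 members are named; of each other list, up to 3 called genes with the smallest adjusted p for passage. 1 gene that this rule names is not reported here. Members and lists were chosen with earlier results of these data known.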

Additional observations from a re-analysis of the deposited data

How the results depend on the processing

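The count of genes that fell at P6 ran from 15 to 20 and of those that rose from 4 to 6 over all alternatives, against 19 and 6; passage alone gave 15 and 4. Of the 25 called genes, 18 were called in all 12 alternatives fitted for each gene, 7 were lost in at least 1, and 0 changed sign. Leaving out either library of a treatment removes that treatment's pair from the passage comparison. Those fits among the 12 therefore nearly repeat each other within a treatment and are not separate checks. The median of all genes moved by at most 0.04 on the log2 scale. The median change of the 31 genes was -0.41, -0.20 and -0.36 in the vehicle, α-amyrin and β-amyrin pairs against -0.27 in the fit. Against 0 calls for the compounds, no filter gave 4 for α-amyrin (Egr2, Klf2, Klf4, Spry2), 4 for β-amyrin (Egr1, Zfp36, Dusp4, Spry2) and 2 between the isomers (Egr1, Egr2). DESeq2 gave 2 for α-amyrin, 1 for β-amyrin and 0 between the isomers. The shares of all genes called under these settings are not given here, so the counts cannot be set against the whole table. Leaving out each library gave 0 to 3 for α-amyrin, 0 to 3 for β-amyrin and 0 to 1 between the isomers. Shares of all genes are not given for those fits either. The cause of these changes in calls was not tested. A group left with 1 library was assumed to vary like the others. The passage-by-amyrin term stayed at 0 calls and could not be fitted without either vehicle library. Libraries could not be paired by replicate number, since each condition has only library 1. The fit itself compares the passages within each treatment. Depth limits Fosb and Nr4a3, with 17 to 86 counts a library, and the passage ratio of Fosb also differed in sign between treatments.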
